A study of Mus musculus with 11 samples.

Results

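H3K9me3 peaks obtained with bisulfite conversion were compared with those obtained when the conversion was left out, in mouse E14 embryonic stem cells. The members were all peaks on chromosomes 1 to 19 in 2 deposited lists. The list of H3K9me3 bisulfite run 1 held 12938 peaks, and the list of the H3K9me3 library without bisulfite, called the control below, held 12164. Together they made up 25102 of the 193978 peaks in the 11 lists of the series. A peak was shared when at least 1 bp of it lay inside a peak of the other list, and was otherwise run 1 only or control only.

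CUT&Tag-BS reads a chromatin mark and DNA methylation from one fragment, because a protein A-Tn5 transposase held by the antibody cuts DNA next to the mark and the cut DNA is then bisulfite converted. Both H3K9me3 libraries came from 250000 cells of E14, an established embryonic stem cell line of 129/Ola background kept in serum with leukemia inhibitory factor, and used the same abcam anti-H3K9me3 antibody and a transposase loaded with methylated adapters. The bisulfite sample was read as run 1 with paired-end reads of 35 bp and as run 2 with reads of 75 bp; the control's read length and depth are not given in the sources used here. The unified peak lists of H3K4me1 and H3K27me3 from the same line, and the calls of H3K4me1 and of H3K27me3 from 250000 cells, were set beside the H3K9me3 peaks. A unified list merges all lists of one mark, the control included. The labels do not say whether the runs read 1 library; they were counted as 1, since CpGs read once in run 1 and once in run 2 gave matching calls in 96.0% of 465630 cases, against 83.5% for 2 calls within run 2. With 1 line and 1 library per condition, no test across samples could be made. The 95% intervals below are Wilson intervals that cover counting error only, and copies made by PCR are not independent molecules. The number of chromosomes on which an order held is given as the spread.

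H3K9me3 is a mark of silent chromatin. In embryonic stem cells the methyltransferase SETDB1, brought by TRIM28 and KRAB zinc finger proteins, places it on endogenous retroviruses and on the methylated allele of imprinting control regions, and it also covers many clusters of zinc finger genes. These places are rich in methylated CpGs, whereas H3K4me1 marks enhancers and the borders of promoters, where methylation is low. Of 12 pluripotency genes with a promoter entry, 11 had a unified H3K4me1 peak at the promoter. The H3K4me1 run 2 level there was 9.03% of 2237 calls. The same values over all promoters were not computed, so these do not tell the cell type. None of the 19 pluripotency genes on these chromosomes carried an H3K9me3 peak of any class. Of all 47042 genes, 5.37% had a shared, 2.18% a run 1 only and 1.72% a control only peak in the gene or promoter. At these shares, 19 genes are too few to read the absence as a trait of the list. RNA was not measured.

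6 promoters are printed as examples, and the choice was made after their values were seen. Few peaks of any class meet a promoter, so the examples do not stand for the peaks of a class. Each entry is the 250 bases before a RefSeq start site (GRCm38.p6, the assembly that mm10 names), 5′ to 3′ on the gene's strand, with CpGs in capitals. In the shared class, Nnat, an imprinted gene, lies at chr2:157559828-157560077 on the plus strand, and Zfp996, a zinc finger gene, at chr12:18387241-18387490 on the plus strand. In the run 1 only class, the imprinted gene Nap1l5 lies at chr6:58907127-58907376 on the minus strand and the zinc finger gene Zfp932 at chr5:109996260-109996509 on the plus strand. In the control only class, Dazl, which encodes a germ cell RNA-binding protein, lies at chr17:50293621-50293870 on the minus strand and Zscan25, a zinc finger gene with a SCAN domain, at chr5:145280201-145280450 on the plus strand.
Nnat: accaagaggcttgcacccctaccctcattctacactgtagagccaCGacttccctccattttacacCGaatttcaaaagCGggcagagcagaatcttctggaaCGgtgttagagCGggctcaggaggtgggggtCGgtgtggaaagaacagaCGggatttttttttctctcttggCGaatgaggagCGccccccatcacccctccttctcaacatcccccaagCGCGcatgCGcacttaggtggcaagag
Zfp996: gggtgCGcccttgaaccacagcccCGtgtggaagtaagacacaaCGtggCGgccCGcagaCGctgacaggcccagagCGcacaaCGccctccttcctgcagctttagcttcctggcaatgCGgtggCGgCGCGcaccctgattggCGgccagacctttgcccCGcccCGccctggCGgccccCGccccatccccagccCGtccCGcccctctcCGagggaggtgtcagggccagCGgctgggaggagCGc
Nap1l5: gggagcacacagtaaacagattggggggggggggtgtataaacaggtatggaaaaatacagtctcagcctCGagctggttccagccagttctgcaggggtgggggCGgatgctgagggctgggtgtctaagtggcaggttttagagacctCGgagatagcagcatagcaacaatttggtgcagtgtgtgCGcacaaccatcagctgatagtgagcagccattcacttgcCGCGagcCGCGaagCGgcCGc
Zfp932: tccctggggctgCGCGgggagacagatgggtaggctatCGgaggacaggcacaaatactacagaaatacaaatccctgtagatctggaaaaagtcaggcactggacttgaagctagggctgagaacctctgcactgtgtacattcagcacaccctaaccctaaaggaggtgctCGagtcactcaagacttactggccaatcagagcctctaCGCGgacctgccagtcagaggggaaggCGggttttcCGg
Dazl: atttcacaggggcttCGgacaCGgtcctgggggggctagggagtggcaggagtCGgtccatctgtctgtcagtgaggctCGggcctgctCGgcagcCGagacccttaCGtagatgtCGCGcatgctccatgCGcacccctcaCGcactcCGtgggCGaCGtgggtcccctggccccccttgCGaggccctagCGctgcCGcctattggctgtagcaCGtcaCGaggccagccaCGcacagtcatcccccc
Zscan25: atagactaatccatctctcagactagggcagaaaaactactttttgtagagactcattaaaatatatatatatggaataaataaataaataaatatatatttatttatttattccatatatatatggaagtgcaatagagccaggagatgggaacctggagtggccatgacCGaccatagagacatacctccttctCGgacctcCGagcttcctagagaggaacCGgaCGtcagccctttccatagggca
The letters ranged from 5 CpGs at Zscan25 and 8 at Zfp932 to 20 at Dazl and 22 at Zfp996, with 12 at Nnat and 10 at Nap1l5. H3K9me3 run 2 read these stretches as methylated at Nnat, 44 of 46 calls, at Nap1l5, 51 of 55, and in part at Dazl, 18 of 28. It read them as unmethylated at Zfp996, 1 of 79 calls, at Zfp932, 0 of 62, and at Zscan25, 0 of 11. The printed shared and run 1 only promoters were thus of both kinds, and the control only ones were partly methylated (Dazl) or unmethylated (Zscan25). Over all promoter entries inside shared, run 1 only and control only peaks the median was 5, 4 and 5 CpGs, beside 6 over all entries. The letters TGCCGC, the sequence that the imprinting factor ZFP57 is known to bind, were searched on both strands and occurred once at Nap1l5 and once at Dazl. They were in 8.70% of all 31396 promoter entries of that length, in 20 of 224 inside shared peaks (8.93%), in 3 of 47 inside run 1 only peaks (6.38%) and in 3 of 20 inside control only peaks (15%). A match is a description of the letters and was not tested as a binding site.

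Most H3K9me3 regions were found with and without bisulfite. Of the run 1 peaks, 9352 were shared, or 72.3% (95% interval 71.5 to 73.0%), and 3586 were run 1 only. Of the control peaks, 9437 were shared, or 77.6% (76.8 to 78.3%), and 2727 were control only. The control share was above the run 1 share on 19 of 19 chromosomes. The lists differ in length and width: between the 6082 widest peaks of each, the shares were 73.0% (71.8 to 74.1%) for run 1 and 73.6% (72.5 to 74.7%) for the control, with overlapping intervals. By chromosome the run 1 share ran from 66.3% on chromosome 14 to 77.8% on chromosome 15, and the control share from 72.5% on chromosome 14 to 81.9% on chromosome 13. In bases, the run 1 list covered 27.5 Mb and the control list 24.7 Mb, with 18.1 Mb in both, a Jaccard index of 53.1%. Pairing was mostly one to one: 9104 of the shared run 1 peaks met 1 control peak and 248 met more, with 3 the most.

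**Figure D1:**
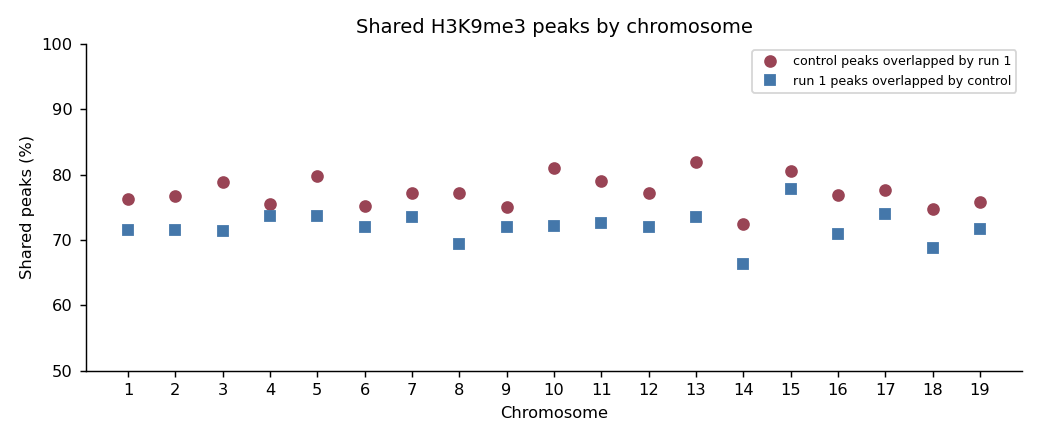
Share of H3K9me3 peaks overlapped by at least 1 bp of the other list (y axis, percent, starting at 50) on each chromosome (x axis); squares are run 1 peaks and circles control peaks, 1 library each, with no error bars. The circles lie above the squares on 19 of 19 chromosomes, and both marks are lowest on chromosome 14, at 66.3% and 72.5%.

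Few peaks sat close to the line between shared and one-list. Only 15 shared run 1 peaks and 17 shared control peaks overlapped the other list by under 100 bp, with median CpG densities of 5.24 and 8.99 per kb. Just outside, 27 run 1 only and 30 control only peaks lay within 100 bp of the other list, with median densities of 8.99 and 10.5 per kb. The peaks of one list were mostly far from the other list, at a median distance of 24712 bp for run 1 only and 23377 bp for control only. Within 1000 bp lay 4.35% and 5.90% of them, and beyond 50000 bp lay 36.9% and 36.5%.

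The peaks found in one list were narrow. The median width was 1632 bp for shared run 1 peaks and 1548 bp for shared control peaks, against 1001 bp for both one-list sets. That value is the smallest width in the lists, and 67.1% of run 1 only and 73.7% of control only peaks had it, beside 24.0% and 28.1% of the shared peaks. Peaks over 3000 bp made up 24.0% of shared run 1 peaks and 21.2% of shared control peaks, 2.31% of run 1 only and 0.587% of control only peaks. On 19 of 19 chromosomes each one-list set had a smaller median width than its shared set. A wide peak meets another list more readily, so the properties below were also read within width classes.

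The 2 one-list sets differed in CpG density, on opposite sides of the shared peaks. Run 1 only peaks had a median of 7.99 CpGs per kb (quartiles 4.995 and 12.003). All CpGs over all bases gave 9.26 per kb in this set, above the 8.48 of chromosomes 1 to 19 on that measure. Control only peaks had 10.99 (quartiles 6.99 and 16.98). Shared peaks had 9.99 in the run 1 list and 10.4 in the control list. The run 1 only median was below that of shared run 1 peaks on 19 of 19 chromosomes and below that of control only peaks on 18 of 19, chromosome 19 being the exception with 10.9 against 9.99. Control only peaks were above shared control peaks on only 11 of 19 chromosomes.

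The order of the one-list sets was the same at matched width. Among peaks up to 1500 bp, 85.6% of the run 1 only and 90.2% of the control only set, the medians were 7.99 and 10.99 CpGs per kb, with 10.99 in shared run 1 and 10.2 in shared control peaks. Among peaks over 1500 and up to 3000 bp they were 7.55 (95% interval 7.01 to 8.36) in run 1 only and 10.5 (9.75 to 11.6) in control only peaks. The tails went the same way. Densities of over 20 CpGs per kb occurred in 15.2% of control only and 6.16% of run 1 only peaks, and densities under 5 per kb in 16.4% and 28.8%.

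**Figure D2:**
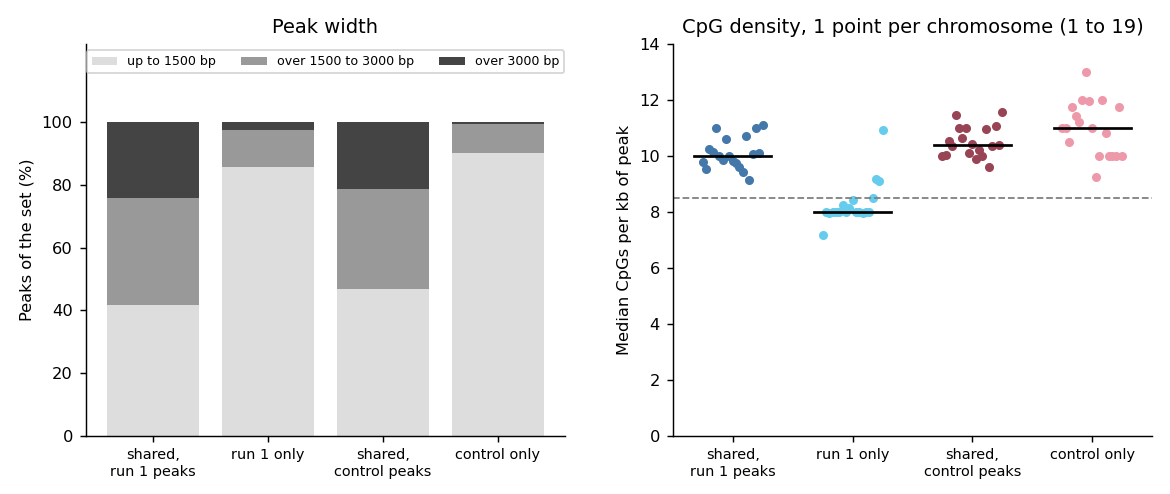
Left, share of each set (y axis, percent) in 3 width classes (stacked bars from 0 to 100%); right, median CpGs per kb (y axis) with 1 point per chromosome, a bar at the median over the 19 chromosomes and a dashed line at the density of all bases, 8.48. One-list peaks are mostly up to 1500 bp wide (85.6% and 90.2%). The run 1 only points lie around 8 and the control only points lie between 9.23 and 12.99. The dashed line is all CpGs over all bases and not a median, and on that measure run 1 only peaks had 9.26.

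Bisulfite calls were raised over the centre of every set, the control only set included. At shared run 1 peaks, run 1 gave 1.53 calls per CpG and run 2 gave 4.58, against 0.0706 and 0.219 outside all unified peaks. Run 1 only peaks had 1.26 and 3.41 calls per CpG. Control only peaks had 0.762 and 2.88, which is 10.8 and 13.2 times the values outside peaks. Run 1 calls took part in choosing the sets, since the run 1 list was made from that run, and those values are a description only. In 500 bp bins, run 2 calls over control only peaks fell from 2.89 per CpG in the bin just before the centre to 1.19 in the bin 1250 bp and 0.761 in the bin 9750 bp before it. Shared control peaks went from 4.74 to 2.63 and 0.890 over the same distances. CpG density peaked over the centre as well, most in the control only set, at 12.8 per kb in that bin against 9.17 in the run 1 only set.

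The run 2 list held most of the one-list peaks. A run 2 peak overlapped 3232 of the 3586 run 1 only peaks, 90.1% (95% interval 89.1 to 91.1%), and 2024 of the 2727 control only peaks, 74.2% (72.5 to 75.8%), beside 98.3% of either shared set. Run 2 had 19411 peaks on these chromosomes and 6065726 calls, against 1932036 calls in run 1. At the 703 control only peaks that run 2 missed, its calls were 1.94 per CpG, against 3.17 at the 2024 it found. At the 354 run 1 only peaks that run 2 missed they were 3.09, against 3.45 at the 3232 it found. Depth and read length changed together between the runs, and their parts in these shares cannot be told apart. The runs were counted as 1 library, so run 2 is not independent of the run 1 list that defined the sets. The share of run 1 only peaks found in run 2 is therefore a description only and no fair match to the control only share.

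**Figure D3:**
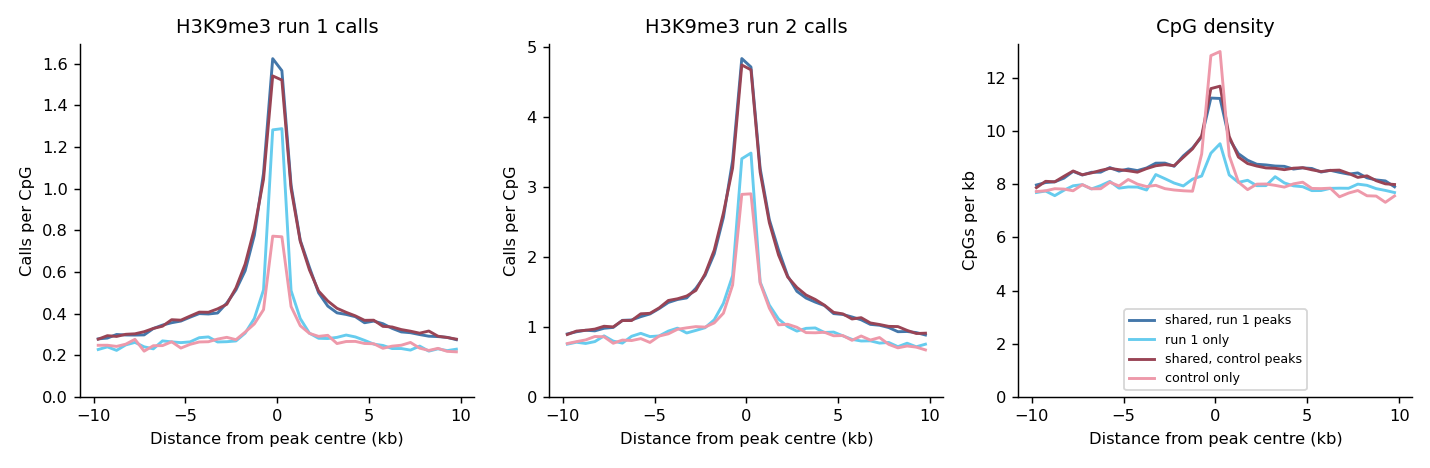
Mean calls per CpG of H3K9me3 run 1 (left) and run 2 (middle) and CpGs per kb (right) in 500 bp bins from 10 kb before to 10 kb after the peak centre (x axis, kb), 1 line per set, with no error bars. Control only peaks show a peak of bisulfite calls in both runs, 0.772 and 2.89 calls per CpG in the bin just before the centre, and the highest CpG density there, 12.8 per kb.

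All sets overlapped genes in similar shares. A gene body was overlapped by 32.7% of shared run 1, 31.5% of run 1 only, 32.6% of shared control and 31.5% of control only peaks, whereas gene bodies cover 49.5% of the bases. Promoters, taken as 1000 bp on each side of a RefSeq start, were met by 3.14% of shared run 1 peaks (95% interval 2.80 to 3.52%), 2.41% of run 1 only (1.95 to 2.98%), 3.12% of shared control (2.78 to 3.50%) and 2.03% of control only peaks (1.55 to 2.64%). These windows cover 2.295% of the bases. A peak counts at 1 shared base, so the share of peaks to expect is higher than this share of bases and grows with peak width. Among peaks up to 1500 bp the promoter shares were 2.33, 2.21, 1.92 and 2.11%, in the same order, with overlapping intervals. Promoter shares leave out chromosome 18, for which no start sites were used.

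Run 1 only peaks met H3K4me1 peaks more often than control only peaks did. A unified H3K4me1 peak was overlapped by 279 run 1 only peaks, 7.78% (95% interval 6.95 to 8.70%), and by 52 control only peaks, 1.91% (1.46 to 2.49%). Those unified peaks cover 2.99% of the bases, which again is not the share of peaks to expect, since 1 shared base is enough. Shared peaks lay near the run 1 only value, at 6.67% in the run 1 list and 6.28% in the control list. The control only share was the lower of the one-list sets on 19 of 19 chromosomes and was below the shared control share on 19 of 19, whereas run 1 only was above shared run 1 on 13 of 19. Among peaks up to 1500 bp the shares were 7.85% in run 1 only and 1.87% in control only peaks, beside 4.81 and 5.66% in the shared sets.

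Each H3K4me1 list alone gave the same order. The H3K4me1 library without bisulfite was overlapped by 6.22% of run 1 only (95% interval 5.47 to 7.06%) and 1.47% of control only peaks (1.08 to 1.99%). H3K4me1 bisulfite run 1 was overlapped by 6.94 and 1.61%, and run 2 by 6.83 and 1.503%. When at least 50% of a peak had to lie in unified H3K4me1 peaks, the shares were 6.30% in run 1 only, 1.21% in control only, 2.77% in shared run 1 and 3.06% in shared control peaks. For H3K27me3, the mark of Polycomb repression, the intervals of the one-list sets overlapped. Its unified peaks cover 4.27% of the bases and were met by 1.17% of run 1 only (0.868 to 1.58%), 1.06% of control only (0.741 to 1.52%), 0.909% of shared run 1 and 0.848% of shared control peaks. With 50% coverage the shared values fell to 0.470 and 0.487%.

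**Figure D4:**
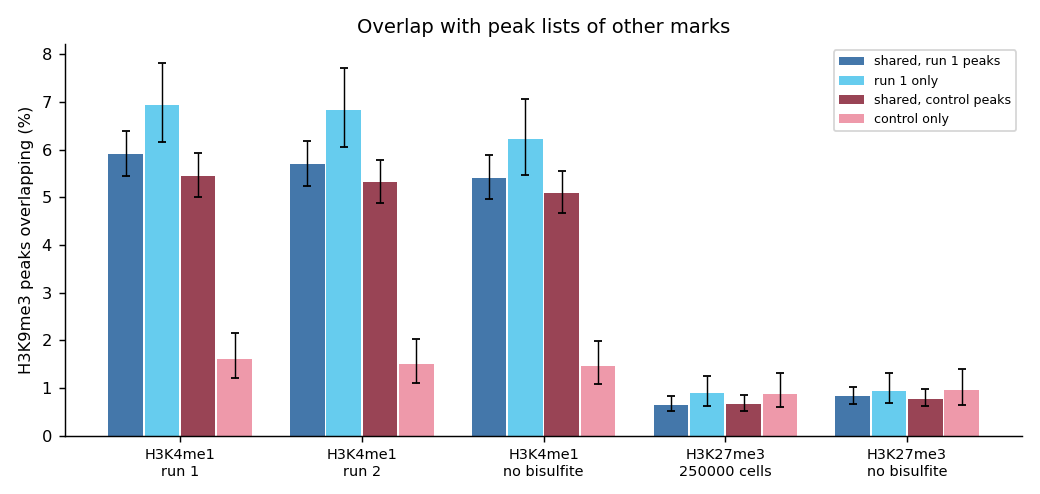
Share of H3K9me3 peaks (y axis, percent, from 0) that overlap a peak of 3 H3K4me1 lists and 2 H3K27me3 lists (x axis), 1 bar per set with Wilson 95% intervals for counting error. Control only peaks overlap each H3K4me1 list least, at 1.61, 1.503 and 1.47%, against 6.94, 6.83 and 6.22% of run 1 only peaks, and all H3K27me3 bars stay near 1%.

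DNA methylation on H3K9me3 fragments was high in all sets and lowest in run 1 only peaks. In run 1 the level, methylated calls over all calls, was 84.7% in shared run 1, 80.8% in run 1 only, 85.0% in shared control and 86.3% in control only peaks. Run 2 gave 85.2, 81.4, 85.5 and 86.1%. Calls of the same library outside all unified peaks stood at 83.1 and 83.2%, so run 1 only peaks lay below that level and the other sets above it. That outside level holds no H3K4me1 peaks, and run 1 only peaks without an H3K4me1 peak stood above it, at 84.0 and 84.1%. These values come from 51817 calls in run 1 and 140305 in run 2 for run 1 only peaks, and 30305 and 114492 for control only peaks. The run 1 intervals were 80.4 to 81.1% for run 1 only and 86.0 to 86.7% for control only peaks. The run 1 only level was below that of control only peaks on 18 of 19 chromosomes in run 1 and on 19 of 19 in run 2. It was below shared run 1 peaks on 19 of 19 in each run. Control only peaks were above shared control peaks on 15 of 19 chromosomes in run 1 and 11 of 19 in run 2.

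**Figure D5:**
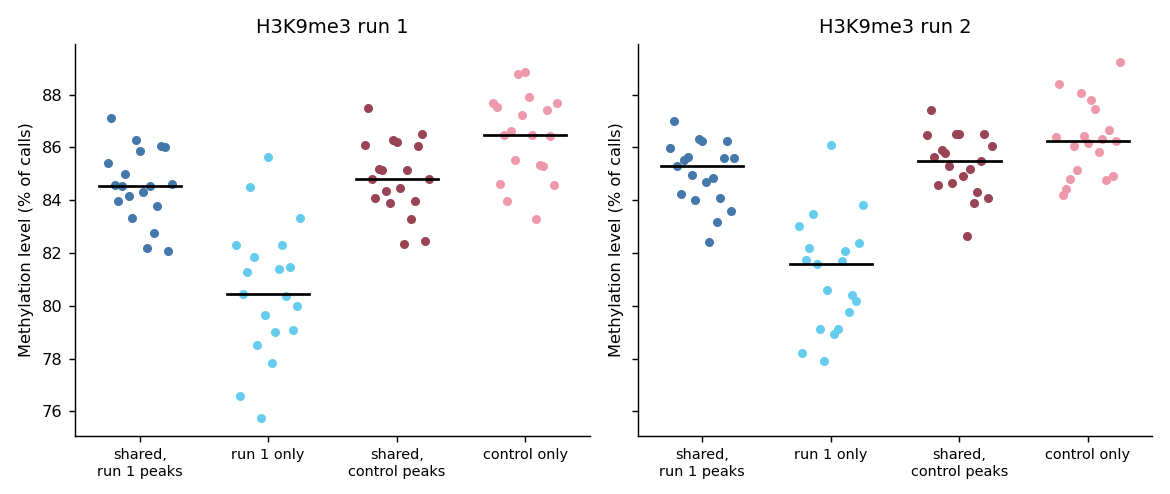
Methylation level (y axis, percent of calls, not starting at 0) of each peak set in H3K9me3 run 1 (left) and run 2 (right), 1 point per chromosome with a bar at the median over the 19 chromosomes. Run 1 only points range from 75.8 to 85.6% in run 1 and from 77.9 to 86.1% in run 2; control only points range from 83.3 to 88.8% and from 84.2 to 89.2%.

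Run 1 only peaks were least methylated where H3K4me1 peaks lay. The 279 run 1 only peaks that met an H3K4me1 peak had a level of 39.1% (95% interval 37.5 to 40.6%) in run 1 and 40.6% (39.5 to 41.6%) in run 2. The 3307 others had the 84.0 and 84.1% given above. The H3K4me1 library read the same 279 peaks at 20.7% in its run 1 and 21.4% in its run 2. Of the control only peaks, the 52 with an H3K4me1 peak had 60.8% in each run and the 2675 without had 86.9 and 86.5%. Shared run 1 peaks had 64.6 and 64.9% in the 624 with and 86.6 and 86.9% in the 8728 without. Without the H3K4me1-marked peaks, run 1 only peaks thus remained 2.59 percentage points below control only peaks as a mean of the runs, against 5.15 points with them.

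Single peaks showed the same tail. Among peaks with at least 10 calls in run 2, the median level was 88.5% over 3092 run 1 only peaks and 90.5% over 2400 control only peaks, so typical peaks of both sets were highly methylated. Levels under 20% were found in 122 run 1 only peaks, 3.95%, and in 14 control only peaks, 0.583%, beside 1.23% of shared run 1 and 1.55% of shared control peaks. An H3K4me1 peak overlapped 75 of those 122 and 3 of those 14. Levels under 50% were found in 10.1% of run 1 only and 2.92% of control only peaks. At matched CpG density run 1 only peaks were below control only peaks in all 4 density classes. Run 2 read run 1 only and control only peaks at 79.6 and 84.2% under 5 CpGs per kb, 79.6 and 85.3% at 5 to 10, 84.3 and 88.5% at 10 to 20, and 77.1 and 83.4% at 20 and over. Against the shared sets the order was not the same in every class: shared run 1 and shared control peaks stood at 79.1 and 79.2% under 5 CpGs per kb, just below run 1 only peaks, and at 83.7 and 84.4% at 20 and over, above control only peaks.

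By width, run 1 only peaks were less methylated than control only peaks in the 2 narrower classes and not in the widest. Run 2 read peaks up to 1500 bp at 80.5% in run 1 only and 85.8% in control only, and peaks over 1500 and up to 3000 bp at 83.3 and 87.9%. Over 3000 bp the order turned, with 85.4% in 83 run 1 only and 84.6% in 16 control only peaks, and run 1 gave 84.7 and 83.04% there.

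Imprinted genes were the list with the highest share of shared peaks. At imprinting control regions the methylated allele carries H3K9me3. Of 44 imprinted genes in the table, 20 had a shared peak in the gene or promoter (45.5%), beside 5.37% of all 47042 genes. 6 had a run 1 only peak (13.6%, beside 2.18% of all genes) and 2 a control only peak (4.55%, beside 1.72%). These are counts of genes and not of separate peaks, since nested genes can meet the same peak. Herc3 and Nap1l5 met the same run 1 only peak. Peg13 and Trappc9 met the same shared peak, as did Nnat and Blcap. The listed genes are longer, with a median of 39383 bp against 6277 bp over the table, and long genes meet peaks more readily. Promoter windows are of equal length: of 35 imprinted genes with a promoter entry, 12 had a shared peak there, 1 a run 1 only peak and none a control only peak, beside 1.28, 0.334 and 0.21% of 25748 promoters. Gene lists were chosen with earlier results of these data known.

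The widest shared peaks over imprinted genes lay at genes with known germline-methylated regions. The peak over Peg13, a noncoding RNA inside Trappc9, spanned 13722 bp (chr15:72803638-72817359) and was read in run 1 at 93.3% (684 calls) and in run 2 at 93.2% (1812 calls). At Nnat, which encodes a neuronal proteolipid and lies inside Blcap, the peak spanned 10649 bp (chr2:157554430-157565078), with 92.4% of 446 and 94.0% of 1164 calls. At H19, a growth-restraining noncoding RNA, it spanned 9304 bp (chr7:142576200-142585503), with 93.9% of 410 and 93.6% of 1147. At Mest, which encodes a hydrolase-like protein, it spanned 9270 bp (chr6:30732059-30741328), with 92.6% of 417 and 92.1% of 1133. The 4 peaks thus had close levels, from 92.4 to 93.9% in run 1 and from 92.1 to 94.0% in run 2. Bulk fragments do not show from which allele or which cells a call comes.

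Nap1l5, an intronless imprinted gene inside Herc3, was the 1 imprinted promoter found with run 1 and not in the control. Its peak was 1001 bp wide with 50 CpGs (chr6:58906804-58907804), lay 165169 bp from the nearest control peak and was also in the run 2 list. H3K9me3 fragments were methylated there, with a run 1 level of 87.7% over 81 calls (95% interval 78.7 to 93.2%) and a run 2 level of 88.1% over 177 (82.5 to 92.1%). A unified H3K27me3 peak lay at the same place, and H3K27me3 fragments from 250000 cells were read at 13.2% of 484 calls (10.5 to 16.5%). H3K4me1 run 2 gave 0 of 10 calls, which allows a level of up to 30%. In the 250 bases printed above the contrast was 51 of 55 methylated calls on H3K9me3 fragments in run 2 against 5 of 92 on H3K27me3 fragments.

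The other imprinted genes with a one-list peak gave thin values. The run 1 only peak in Ddc, the dopa decarboxylase gene (chr11:11828389-11829746), overlapped an H3K4me1 peak and was read at 15.8% of 19 and 7.32% of 41 calls, close to the 6.32% of 364 calls in H3K4me1 run 2. Run 1 only peaks in Commd1, Snrpn and Trappc9 had 36, 15 and 18 calls in run 2, of which 30, 15 and 11 were methylated. Control only peaks lay in Gnas, with 3 of 6 run 2 calls methylated, and in Trappc9, with 12 of 14, at 2206 and 1451 bp from the nearest run 1 peak.

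Germ cell genes, many of which are silenced by promoter methylation outside the germline, had a shared peak in 6 of 24 cases (25%, beside 5.37% of all genes). None had a run 1 only peak, 1 had a control only peak, and 7 in all had a peak of any class. Their median length was 24899.5 bp against 6277 bp over the table. At promoters, 2 of 23 had a shared peak and 1 a control only peak, beside 1.28 and 0.21% of all 25748 promoters. The shared 6 were Sycp1, a synaptonemal complex gene, Dpep3, a testis dipeptidase gene, Brdt, a testis bromodomain gene, Stk31, a testis kinase gene, and Mov10l1 and Mael, which act in the piRNA pathway. Dpep3 was read at 92.7% of 245 run 2 calls and Mov10l1 at 90.2% of 338, whereas Brdt, which also met an H3K27me3 peak, stood at 54.2% of 153. Dazl was control only: its promoter peak (chr17:50293164-50294164) held 71 CpGs, lay 24312 bp from the nearest run 1 peak and was absent from the run 2 list. Bisulfite reads covered it all the same, with a run 1 level of 84.9% over 53 calls (95% interval 72.9 to 92.1%) and a run 2 level of 80.3% over 122 (72.4 to 86.4%). H3K27me3 fragments gave 64.5% of 62 calls there and H3K4me1 run 2 gave 14.3% of 21.

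Zinc finger genes of the Zfp series, many of which encode the KRAB factors named above, had peaks of all classes. Of 391 such genes, 47 had a shared peak (12.02%), 22 a run 1 only peak (5.63%) and 14 a control only peak (3.58%), beside 5.37, 2.18 and 1.72% of all genes. Their median length was 17861 bp. At promoters, 9 of 326 genes with an entry had a shared peak, 2 a run 1 only peak and 0 a control only peak. Over all 25748 promoters the shares were 1.28, 0.334 and 0.21%. The widest shared peaks lay over Zfp33b, 19005 bp at 93.1% of 562 run 2 calls, and over Zfp462, 17140 bp at 73.3% of 920, the latter with an H3K4me1 peak inside. The widest run 1 only peaks, over Zfp277 with 3308 bp and Zfp385c with 2587 bp, were read at 92.5% of 159 and 92.4% of 118 run 2 calls. The widest control only peaks, over Zfp462 with 1374 bp and Zfp804b with 1251 bp, were read at 75.6% of 41 and 97.0% of 66. Zfp462 thus held peaks of both classes. Counts in these families are uncertain, because short reads can be placed on near-identical copies.

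The Zscan25 promoter peak stood apart from the methylated peaks above. It was control only (chr5:145280083-145281083), held 48 CpGs, lay 11160 bp from the nearest run 1 peak and was absent from the run 2 list. H3K9me3 fragments gave no methylated call, 0 of 49 for run 1 and 0 of 73 for run 2, which allows levels of up to 6.12 and 4.11%. H3K4me1 run 2 gave 0 of 75 calls and H3K27me3 0 of 73. Among the 18 Zscan genes it was the 1 control only peak (5.56%, beside 1.72% of all genes). Zscan20 had the 1 shared peak (5.56%, beside 5.37% of all genes), 3814 bp wide at 91.8% of 292 run 2 calls.

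The 2 large receptor families differed in their shares. Vomeronasal receptor genes, which serve pheromone sensing, had a shared peak in 17 of 356 (4.78%), a run 1 only peak in 13 (3.65%) and a control only peak in 3 (0.843%), beside 5.37, 2.18 and 1.72% of all genes. The run 1 only share was thus above that of all genes and the control only share below it. Olfactory receptor genes, with 12, 4 and 2 of 1111 (1.08, 0.360 and 0.180%), were below all genes in each class. Both families consist of short genes in clusters of close copies, with median lengths of 961.5 and 951 bp, against 6277 bp over the table, and read placement is uncertain there too. Among 22 genes of the H3K9me3 machinery, with a median length of 41671.5 bp, 2 had a peak (9.09%, beside 5.37% of all genes), in both cases shared: Atf7ip, a partner of SETDB1, and Morc3, a nuclear ATPase. The Atf7ip promoter peak spanned 7623 bp and was read at 59.1% of 242 and 50.9% of 552 calls. No Hox gene of 39 and none of 26 Pax, Gata and Tbx genes had a peak of any class. Of 75 ribosomal protein genes 1, Rpl39l, had a shared one. Of all genes, 5.37, 2.18 and 1.72% had a shared, run 1 only and control only peak. At these shares the 3 lists are too short to read the low counts as traits of them. Their median lengths were 3737 bp (Hox), 28988 bp (Pax, Gata and Tbx) and 3164 bp (ribosomal protein).

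The widest peaks of each class were looked at one by one. The 5 widest shared peaks of run 1 spanned 23389 to 36495 bp, were all in the run 2 list and held levels from 62.2 to 94.9% in run 2. The widest (chr10:83424340-83460834) met no gene and was read at 94.9% of 3495 run 2 calls, and the next (chr10:41773074-41808827) covered the promoter of Cep57l1, a centrosomal gene, at 84.6% of 2727. The widest run 1 only peak (chr2:160638577-160645810) spanned 7234 bp, lay 86 bp from Top1, the DNA topoisomerase I gene, and met its promoter. It lay 881038 bp from the nearest control peak, was read at 75.2% of 415 run 2 calls and was not in the run 2 list. Of the 5 widest run 1 only peaks, 3 were missing from the run 2 list, and as many of the 5 widest control only peaks were. The widest control only peak (chr11:63475737-63483245) spanned 7509 bp, met no gene, was read at 96.1% of 203 run 2 calls and was also missing from the run 2 list.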

How the data were processed

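CUT&Tag-BS libraries of E14 cells and non-bisulfite controls were compared from deposited peak lists and a deposited table of CpG counts. For 21908008 CpGs and 8 bisulfite libraries the table held counts of methylated and of total calls, deposited by the authors without normalization (0 count columns were left unused). The peak lists gave positions without scores. The submitters' processing notes name mm10, cutadapt 1.12, Bismark 0.23.0, Bowtie2 2.3.0, HOMER 4.10.3 and bedtools 2.29.2, with no role or order; whether duplicates were removed is not given in the sources used here.

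Peaks on chromosomes 1 to 19 were classed with Python 3.11.15 (numpy 2.4.6, pandas 2.3.3). A peak was shared at an overlap of at least 1 bp. CpGs per kb came from the rows of the count table. Gene bodies came from a RefSeq table and start sites from RefSeq promoter entries (GRCm38.p6, 25748 genes, none on chromosome 18). Levels of methylation divide the methylated calls summed over a set by its summed calls. Shares have Wilson 95% intervals; a level of 0 is given with what 3 counts allow. Scripts were tested on simulated data. The depth on these chromosomes was 1932036 calls in run 1 and 6065726 in run 2. No p-value was computed, since each condition had 1 library. For each gene list, up to 6 genes per class were named in order of peak width, and the 5 widest peaks of each class; the printed promoters were chosen after their values were seen, and peak sequences were not used here. Members, gene lists and alternatives were chosen with earlier results of these data known.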

Additional observations from a re-analysis of the deposited data

How the results depend on the processing

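Of 90 values under another setting, 32 stayed inside the 95% interval of the reported value, 58 left it and 5 moved by over 1.5 times. The order of the one-list sets in CpG density, H3K4me1 overlap and methylation level was the same under every alternative setting run for them; within peaks over 3000 bp, a class of 83 and 16 peaks, the order in methylation level turned. Requiring 50% of a peak to be covered gave 65.1% shared run 1 and 72.7% shared control peaks, with median widths of 1571 and 1526 bp and 10.2 CpGs per kb in shared run 1 peaks. H3K4me1 shares were then 2.77% (run 1 shared), 3.06% (control shared), 6.30% (run 1 only) and 1.21% (control only), H3K27me3 shares 0.470 and 0.487% in the shared sets, and run 2 peaks met 89.0% of run 1 only and 71.5% of control only peaks. Counting a peak within 1000 bp of the other list as shared gave 73.5% for run 1 and 78.9% for the control. Lists of the 6082 widest peaks, at least 1437 and 1300 bp wide, gave 73.0% for run 1 and 73.6% for the control, with overlapping intervals. Run 2 in place of run 1 gave 53.6% of run 2 and 92.9% of control peaks shared. Its one-list sets had 8.88 and 9.99 CpGs per kb, H3K4me1 shares of 6.66 and 2.53% and levels of 81.8 and 85.8%, in the order run 2 only and control only; for these 3 properties, though not for the shared shares, this setting was chosen after seeing the data.

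With peaks up to 2000 bp, shared run 1 and shared control peaks had promoter shares of 2.26 and 2.17%, H3K4me1 shares of 4.92 and 5.42% and levels of 83.5 and 83.3%; shared run 1 peaks had 10.3 CpGs per kb and run 1 only peaks a level of 80.5%. All CpGs over all bases gave 10.8 (run 1 shared), 9.26 (run 1 only), 11.5 (control shared) and 12.7 (control only) per kb. Peak midpoints lay in genes for 29.1, 29.8 and 29.1% of run 1 shared, run 1 only and control shared peaks. Promoter windows of 2000 bp gave 4.39, 3.399, 4.23 and 2.91%. The median level over peaks with at least 10 calls was 89.4, 88.5, 89.6 and 90.5%, and CpGs with at least 5 calls gave levels of 83.1, 78.0, 83.3 and 85.6%, in the same order of sets. Leaving out either run moved the level between 84.7 and 85.2% (run 1 shared), 80.8 and 81.4% (run 1 only), 85.0 and 85.5% (control shared), and 86.1 and 86.3% (control only). 2 further settings were chosen after seeing the data: run 1 only peaks over 5000 bp from the control list had a level of 80.7%, and leaving out peaks with H3K4me1 gave 84.1% in run 1 only and 86.7% in control only peaks. The cause of these shifts was not tested. No paired analysis was possible because the classes come from 1 library per condition and the results come from no test. The control's depth is not given in the sources used here, so the depths behind the 2 lists were not compared.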

Other observations

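In each set, fragments of the other marks gave fewer calls per CpG than H3K9me3 fragments and were read at lower levels. In H3K4me1 run 2, shared run 1 peaks stood at 32.7% of 66498 calls and run 1 only peaks at 27.9% of 17061. Shared control peaks stood at 34.1% of 57576 and control only peaks at 40.8% of 5320, beside 52.1% outside all unified peaks. That outside level holds no H3K4me1 peaks. Peaks without an H3K4me1 peak stood nearer to it, at 52.5, 47.9, 53.1 and 51.3% in the same order of sets. Calls per CpG of H3K4me1 run 2 were 0.266 in shared run 1, 0.415 in run 1 only and 0.231 in shared control peaks. All 3 lay above the 0.138 outside peaks, and control only peaks, at 0.134, lay near it. That outside value also holds no H3K4me1 peaks. In peaks without an H3K4me1 peak, calls per CpG were 0.0787 (run 1 shared), 0.109 (run 1 only), 0.0740 (control shared) and 0.0679 (control only). All of these lay below the outside value. H3K27me3 fragments from 250000 cells stood at 67.0, 49.4, 65.5 and 53.4% in the same order, beside 73.6% outside peaks. These levels pool all calls of a set, and the outside level holds no H3K27me3 peaks. Few peaks had at least 10 H3K27me3 calls: 986, 173, 933 and 154 in the same order. Their median levels were higher than the pooled ones, at 86.7, 76.9, 88.2 and 84.7%. Their calls per CpG were 0.352 in run 1 only and 0.401 in control only peaks, against 0.199 and 0.204 in the shared sets and 0.337 outside peaks. The shared sets thus had the fewest H3K27me3 calls per CpG.

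Peaks that run 2 found again and peaks that it missed can be set side by side. Run 2 read the run 1 only peaks of its own list at 80.9% and the 354 others at 85.8%. Among control only peaks it read those of its list at 86.1% and the 703 others at 86.0%. Some peaks of the receptor families were only partly methylated, among them the shared peak over Vmn2r85, a vomeronasal receptor gene, at 26.96% of 115 run 2 calls, and that over Vmn2r1, at 46.1% of 128.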
